A study of Mus musculus with 10 samples.

Results

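The 41 genes described here mark macrophages, the tissue phagocytes that clear debris and present antigen. Members were the genes named for the list whose name, or an older synonym, stood in the gene column of the arrays, with 1 probe per gene, the one with the highest mean tumor-channel intensity over all arrays. All 41 had a probe with a value, out of 18916 named genes in the table. The older names Lyzs, Sfpi1 and Emr1 were read as Lyz2, Spi1 and Adgre1. Of the 41 probes, 40 were well above background on all 10 arrays, and the probe of Nos2 was so on 5.

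RNA of 10 mouse tumors was measured on Agilent arrays against a common reference RNA, 1 array per tumor. The sarcomatoid group held mammary tumors 323, 307 and 594 and the lung tumors 323 and 307. The labels call the tumors numbered 323 and 307 sarcomatoid adenocarcinoma and tumor 594 sarcomatoid carcinoma. The study reports a spindle shape for cells derived from sarcomatoid tumors. The adenocarcinoma group held mammary tumors 105, 131, 470, 17 and 85. The mice in which the mammary tumors arose carried MMTV-Cre, a transgene that switches on the mutant alleles mainly in mammary epithelium. The study's methods give a C57BL/6 background for the compound mutants. Per the study's methods, the adenocarcinomas carried Pik3ca H1047R and Trp53 R270H. Of the sarcomatoid primaries, one carried both alleles, one carried Pik3ca H1047R with a spontaneous Trp53 R245H mutation, and one, tumor 594, the only one without a lung counterpart, carried Trp53 R270H without the Pik3ca allele. The sources used here do not say which of the numbers 323 and 307 had which of the first 2 genotypes. Each lung tumor grew after tail vein injection of a cell line made from the mammary tumor of its number. The sarcomatoid group thus held 3 tumor origins, and 2 of its tumors were grafts. The study does not say whether the injected mice carried MMTV-Cre. The effects of genotype and tumor class cannot be told apart where they differ, since tumors without one of the engineered alleles were all sarcomatoid. Ages were not given in the sources used here.

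Each value is a log2 ratio, tumor RNA over reference RNA, taken from the normalized table. A ratio of 1 is a 2-fold excess over the reference, which is itself a mixture of unknown macrophage content, so ratios compare tumors for a gene and not genes with each other. The labels name Cy3 (green) for the tumor RNA, but the green signal varied less between arrays (mean SD over all probes 0.157 in log2 intensity, against 0.456 in red) and the table's columns followed red over green, so red was read as the tumor. The green signal was not constant for the genes described here: all 41 had a smaller SD in green than in red, but for 29 the green SD was above that mean of all probes. This direction is likely, not certain: with the dye as labelled, the sign of every value and difference would turn. In RNA of whole tumors, fewer macrophages and less RNA per macrophage cannot be told apart. The scanner images had been processed under 3 protocol versions, called scan batches. Batch 1 held tumor 323, batch 2 held tumors 307, 594, 105 and 470, and batch 3 held both lung tumors and tumors 131, 17 and 85.

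One library went against its label. Tumor 470, labelled adenocarcinoma, had a mean log2 ratio of -1.36 over 14 epithelial genes, such as the keratin Krt18 and the desmosome gene Dsp. The other 4 adenocarcinomas had 3.20, 2.81, 3.1 and 3.06. The mean was 1.43, 1.24 and 0.77 for the sarcomatoid mammary tumors, and it was -1.6 and -2.28 for those in the lung, so tumor 470 lay between the lung tumors and the mammary sarcomatoid tumors. It shared a slide with tumor 594. Counts of calls and median differences of the macrophage genes, and of the main lists compared with them, are given with and without it.

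Macrophages arise from embryonic precursors and from blood monocytes, and their survival depends on the receptor Csf1r and its ligand Csf1. The transcription factor PU.1, the product of Spi1, drives their identity. In mammary tumors macrophages are an abundant part of the stroma, and they are recognized by receptors for antibodies, complement and debris, by lysosomal enzymes and by the surface proteins F4/80 (Adgre1) and CD11b (Itgam).

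Most macrophage genes had higher mean values in sarcomatoid tumors than in adenocarcinomas, but none passed the test across all probes. The median of the 41 log2 ratios was 3.45, 3.0, 2.84, 2.81 and 3.47 in sarcomatoid tumors 323, lung 323, 307, lung 307 and 594. It was 1.56, 0.49, 3.22, 2.0 and 0.55 in adenocarcinomas 105, 131, 470, 17 and 85. The sarcomatoid medians spanned a narrow range and the adenocarcinoma medians a wide one (3.11 ± 0.33 against 1.56 ± 1.13, SD, n = 5 each). Tumor 470 lay inside the sarcomatoid range and tumors 131 and 85 were lowest.

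Of the 41 genes, 38 had the higher mean in sarcomatoid tumors and 3 (Marco, Gpnmb and Nos2) the lower, where 49.8% of all 40196 probes were higher and 50.2% lower. The difference, sarcomatoid minus adenocarcinoma, had a median of 1.29 over the genes, against -0.0017 over all probes. It was over 1 log2 unit for 24 genes (4.16% of all probes) and ranged from -0.73 to 2.30. With limma, 0 genes and 0 probes (0.0%) passed 0.05 after Benjamini-Hochberg adjustment, the smallest value over all probes being 0.330. At an unadjusted p below 0.05, 26 genes were higher and 0 lower, where 4.98% of all probes were higher and 4.25% lower. Only Csf1r did not overlap between the groups, where 0.866% of all probes were higher without overlap.

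Leaving out tumor 470 changed the calls. Without it 10 of the 41 genes passed, all higher in sarcomatoid tumors, where 0.846% of all probes were called higher and 0.692% lower. These genes were Fcgr2b, Fcer1g, Tyrobp, Trem2, Msr1, Ctss, Itgam, Adgre1, Cd53 and Cd84, with adjusted p from limma of 0.0189 for Trem2 to 0.0479 for Adgre1. Leaving out any other array gave 0 called genes. At an unadjusted p below 0.05, 31 genes were then higher and 0 lower, where 7.46% of all probes were higher and 6.72% lower. The median difference of the 41 genes was 1.48.

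The difference was also not the same within scan batches 2 and 3. Within batch 2, tumors 307 and 594 exceeded tumors 105 and 470 by a median of 0.43 over the genes, with 33 of 41 higher. Within batch 3, the lung tumors exceeded tumors 131, 17 and 85 by a median of 1.74, with 39 of 41 higher. Batch 2 held tumor 470, whose median log2 ratio of 3.22 lay between those of tumors 307 and 594, 2.84 and 3.47. The sarcomatoid tumors of batch 3 were both lung tumors. Scan batch, tumor 470 and tissue therefore cannot be told apart in this contrast. With scan batch as a term the median difference of the genes was 1.16, and with mammary tumors alone it was 1.06.

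**Figure D1:**
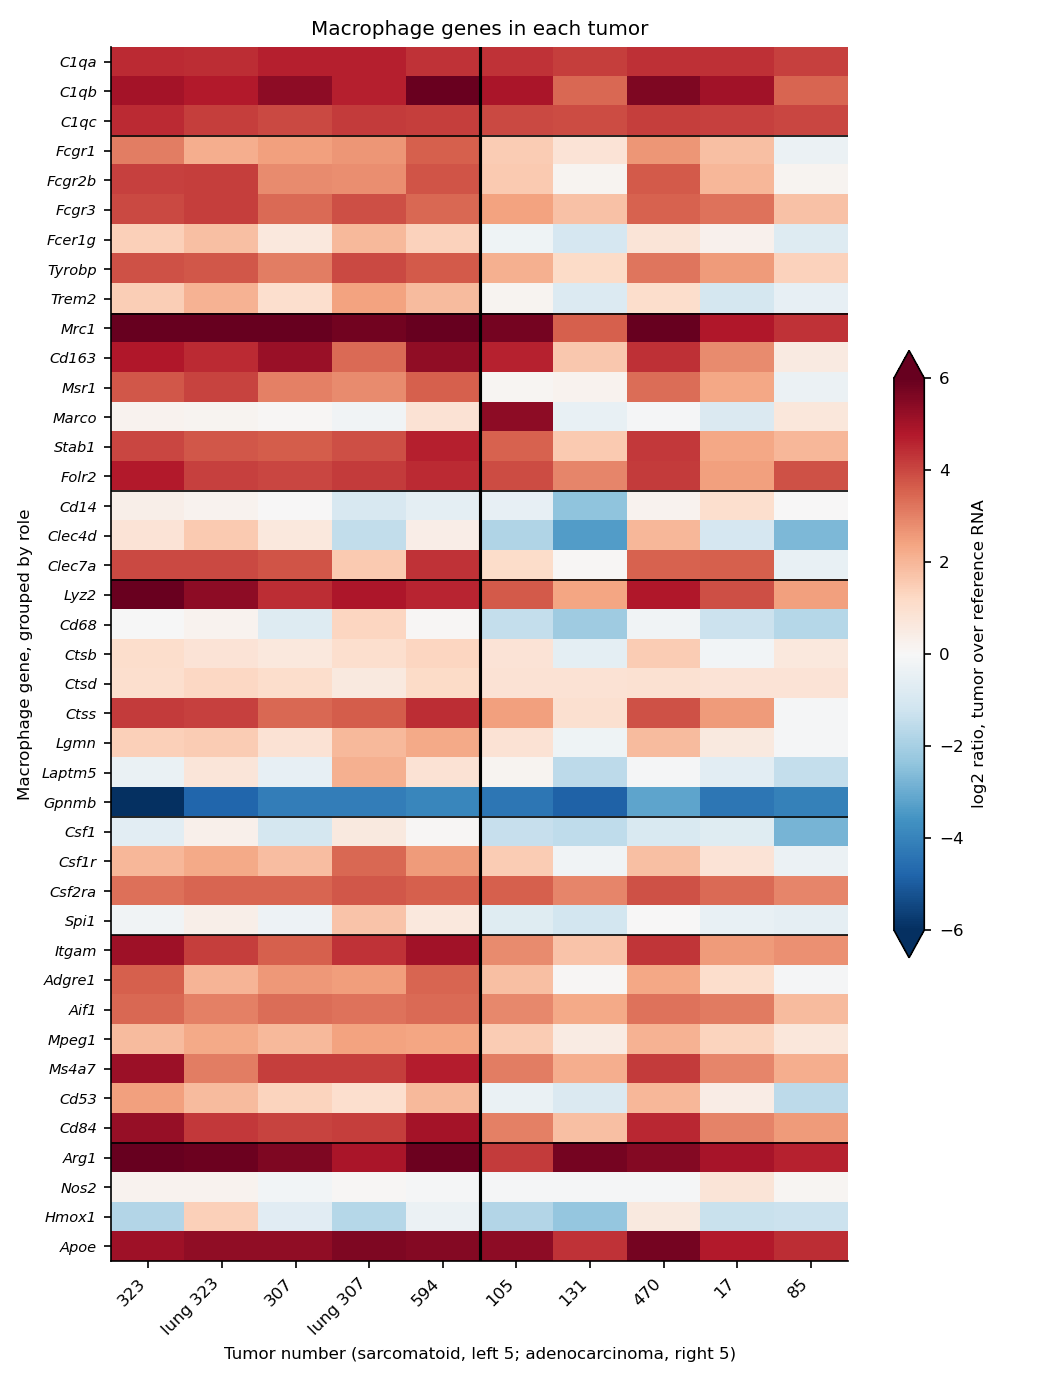
Log2 ratio of tumor over reference RNA (colour, saturated beyond 6 log2 units either way) for the 41 macrophage genes, in rows grouped by role, in the 10 tumors, in columns. The sarcomatoid tumors and tumor 470 share a darker red in most rows, tumors 131 and 85 are palest, and Marco is dark in tumor 105 alone.

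Among adenocarcinomas, the highest tumor was the same for most genes. Tumor 470 was the highest adenocarcinoma for 33 of the 41 genes and lay within the range of the sarcomatoid tumors for 35, below it for 1 (Csf1r) and above it for 5 (Clec4d, Ctsb, Gpnmb, Csf2ra and Apoe). Tumor 131 was the lowest adenocarcinoma for 23 genes and tumor 85 for 12. They lay below the sarcomatoid range for 37 and 33 genes, tumor 17 for 27 and tumor 105 for 26. Among sarcomatoid tumors, tumor 307 was lowest for 19 genes and lung tumor 307 for 12. Lung tumor 307 was also the highest for 12, tumor 323 for 13 and tumor 594 for 10.

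The 6 genes of antibody receptors, their adaptors and Trem2 were the group in which every member was higher with an unadjusted p below 0.05. Their median difference was 1.61. Fcer1g, the signalling chain shared by activating antibody receptors, stood at 1.45, 1.80, 0.61, 1.96 and 1.36 in sarcomatoid tumors and at -0.27, -1.02, 0.76, 0.28 and -0.79 in adenocarcinomas, in the order of tumors given above, which is kept from here on. Tumor 470 alone reached the lowest sarcomatoid tumor, 307. The difference was 1.65 ± 0.38 (SE), a ratio of 3.13, with an unadjusted limma p of 0.00108 and an adjusted p of 0.330.

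Tyrobp, the adaptor known as DAP12 that carries signals of Trem2 and related receptors, stood at 3.82, 3.72, 3.09, 3.96 and 3.70 against 2.12, 1.16, 3.22, 2.55 and 1.37. Again tumor 470 alone entered the sarcomatoid range. Trem2, a receptor for lipids and lipoproteins, stood at 1.48, 2.08, 1.03, 2.40 and 1.90 against 0.16, -0.82, 1.06, -1.07 and -0.52. The overlap was the width between tumor 470 and tumor 307, 1.06 and 1.03. Its difference of 2.02 ± 0.42 (SE), a ratio of 4.05, had the smallest unadjusted limma p of the 41 genes, 0.000439, and an adjusted p of 0.330.

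Fcgr2b, the inhibitory antibody receptor, stood at 4.11, 4.16, 2.84, 2.81 and 3.78 against 1.56, 0.15, 3.69, 2.0 and 0.18. Tumors 131 and 85 were near the reference, and tumor 470 exceeded both tumors numbered 307. The difference was 2.02 ± 0.62 (SE). The activating receptors Fcgr1 and Fcgr3 differed by 1.51 ± 0.50 and 1.22 ± 0.38 (SE). Fcgr2b and Fcgr3 are close relatives, and cross-hybridization of their probes was not tested.

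**Figure D2:**
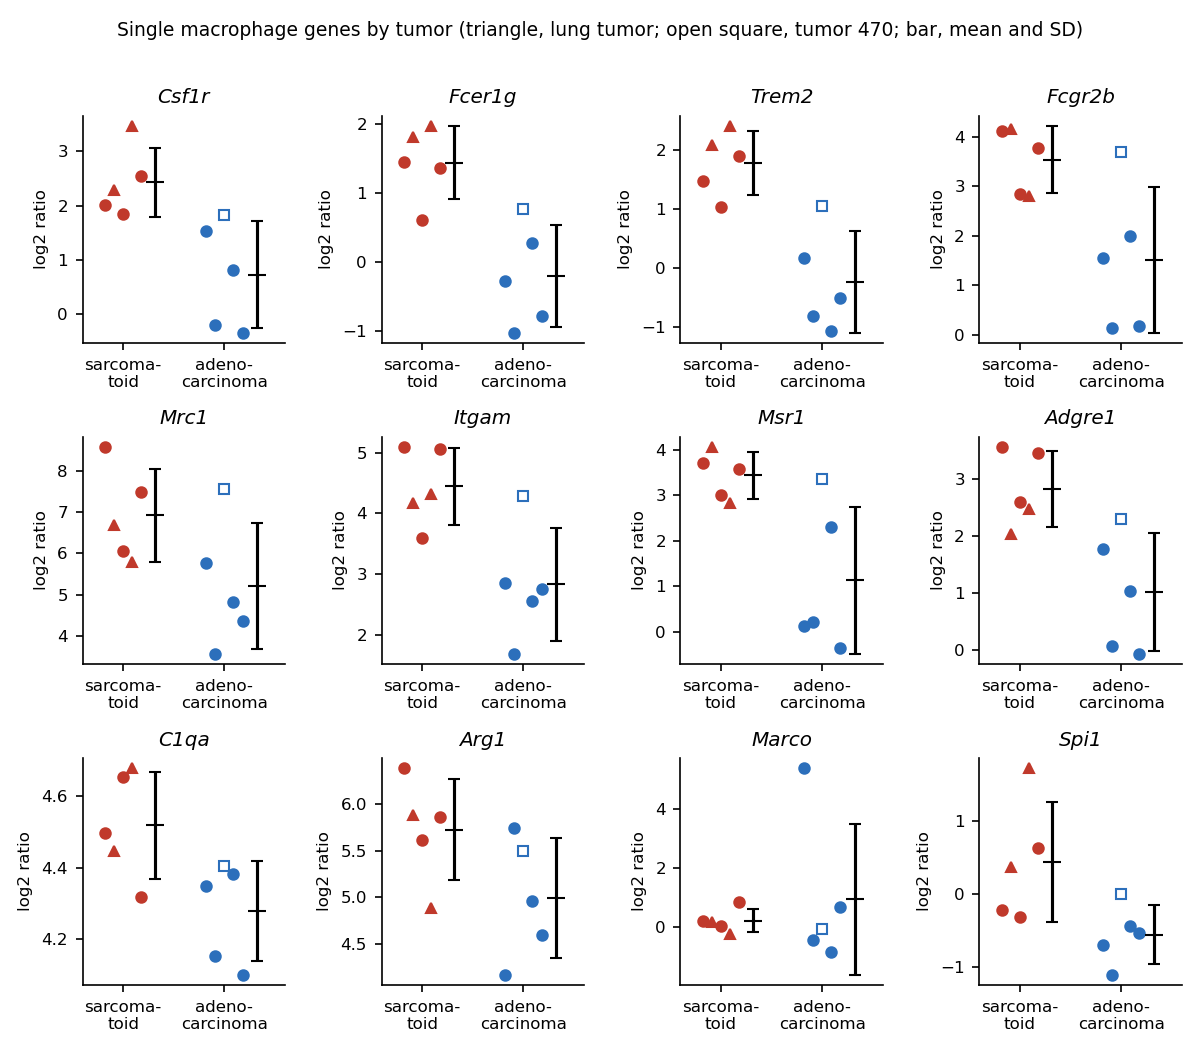
Log2 ratio of tumor over reference RNA on the vertical axes for 12 macrophage genes, 1 panel each, by tumor class; triangles are lung tumors, the open square is tumor 470, and bars give the mean and SD of 5 tumors. For Csf1r the classes do not overlap, and for Fcer1g, Trem2 and Adgre1 tumor 470 alone reaches the sarcomatoid tumors.

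Among the 6 scavenger and endocytic receptors, 5 were higher at an unadjusted p below 0.05 and Marco was lower. Msr1, the class A receptor for modified lipoproteins, stood at 3.71, 4.05, 3.01, 2.83 and 3.58 against 0.14, 0.22, 3.36, 2.30 and -0.36. Adenocarcinomas split widely, with tumors 105, 131 and 85 near the reference and tumor 470 inside the sarcomatoid range. Its difference of 2.30 ± 0.65 (SE), a ratio of 4.93, was the largest of the 41, with an unadjusted p of 0.00412.

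Mrc1 encodes CD206, the mannose receptor of tissue macrophages. It stood at 8.56, 6.67, 6.06, 5.78 and 7.49 against 5.75, 3.57, 7.55, 4.82 and 4.36. All tumors were far above the reference, and tumor 470 exceeded all sarcomatoid tumors but tumor 323. The difference was 1.71 ± 0.73 (SE) with an unadjusted p of 0.0369, but 0.12 within scan batch 2 and 1.98 within batch 3.

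Cd163, the hemoglobin-haptoglobin receptor, stood at 4.79, 4.5, 5.16, 3.40 and 5.33 against 4.62, 1.6, 4.40, 2.85 and 0.55. Tumors 105 and 470 lay in the sarcomatoid range. Its difference depended on the values used: 1.83 ± 0.73 (SE) in the deposited table, 0.75 from the scanner intensities with loess, and 0.56 from the red channel alone. Stab1 and Folr2, which take up debris and folate, differed by 1.26 ± 0.48 and 0.85 ± 0.35 (SE).

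Marco, a scavenger receptor of marginal zone and alveolar macrophages, set tumor 105 apart. It stood at 0.23, 0.18, 0.06, -0.22 and 0.84 in sarcomatoid tumors and at 5.38, -0.44, -0.07, -0.85 and 0.70 in adenocarcinomas. Apart from tumor 105 all tumors were within 1 log2 unit of the reference. The probe was well above background on all arrays. An alveolar macrophage list of 9 genes, Marco among them, had a mean of 1.23 in tumor 105 and 1.97 in tumor 323.

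The pattern recognition receptors split within the sarcomatoid group. Clec7a encodes dectin-1, which binds fungal glucans. It stood at 3.96, 3.94, 3.76, 1.59 and 4.32 against 1.08, 0.05, 3.52, 3.60 and -0.46. Lung tumor 307 lay far below the other sarcomatoid tumors, and tumors 470 and 17 above it. Clec4d, a C-type lectin that pairs with Fcer1g, stood at 0.84, 1.59, 0.62, -1.48 and 0.40 against -1.82, -3.34, 1.99, -1.02 and -2.68, again with lung tumor 307 lowest of its group. The differences were 1.95 ± 0.83 and 1.77 ± 0.89 (SE). Cd14, the lipopolysaccharide co-receptor, differed by 0.14 ± 0.55 (SE), and its sign turned under 4 alternatives.

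Of the 8 genes of the lysosome and secreted lysozyme, 5 were higher at an unadjusted p below 0.05. Ctss, a cysteine protease that trims the invariant chain in antigen presentation, stood at 4.18, 4.10, 3.44, 3.62 and 4.43 against 2.48, 0.96, 3.80, 2.55 and -0.06. Tumor 470 was again the only adenocarcinoma in the sarcomatoid range. The difference was 2.01 ± 0.61 (SE), a ratio of 4.03. Lyz2, the lysozyme of myeloid cells, differed by 1.59 ± 0.48, and Cd68, a lysosomal membrane glycoprotein, by 1.5 ± 0.43 (SE). Lgmn, the asparaginyl endopeptidase legumain, and Laptm5, a leukocyte lysosomal membrane protein, differed by 1.01 ± 0.42 and 1.29 ± 0.52 (SE).

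The cathepsins used by most cells differed less. Ctsb had a difference of 0.52 ± 0.37 (SE). Ctsd stood between 0.58 and 1.25 in all 10 tumors, with a difference of 0.16 ± 0.21 (SE). Gpnmb, a glycoprotein of pigment cells and lipid-laden macrophages, went the other way from the group. It was far below the reference everywhere, at -6.17, -4.76, -4.15, -4.16 and -3.90 against -4.35, -4.87, -3.16, -4.36 and -4.07. Tumor 323 lay below all other tumors and tumor 470 above them.

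Csf1r, the receptor that macrophages need to live, stood at 2.01, 2.28, 1.85, 3.46 and 2.55 in sarcomatoid tumors and at 1.53, -0.20, 1.83, 0.80 and -0.35 in adenocarcinomas. The groups did not overlap, although tumor 470 at 1.83 lay just under tumor 307 at 1.85. The difference was 1.71 ± 0.47 (SE), a ratio of 3.27, with an unadjusted limma p of 0.00353 and an adjusted p of 0.346. The exact two-sided permutation test over all relabellings of the 10 tumors gave 0.00794 for Csf1r, the smallest p these allow. It gave 0.0357 with 1 value per tumor number, where the smallest possible is 0.0179.

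Csf1, the ligand, stood at -0.65, 0.30, -1.06, 0.60 and 0.07 against -1.39, -1.53, -0.92, -0.72 and -2.78. Both lung tumors and tumor 594 were above the reference and all adenocarcinomas below it. The difference was 1.32 ± 0.43 (SE). Spi1 stood at -0.21, 0.37, -0.32, 1.73 and 0.64 against -0.70, -1.11, 0.01, -0.43 and -0.54. Lung tumor 307 was highest, and tumors 323 and 307 lay below tumor 470. The difference was 0.996 ± 0.39 (SE) in the table, 0.53 from the scanner intensities with loess and 0.56 from the red channel alone. Csf2ra, the granulocyte-macrophage factor receptor, differed by 0.17 ± 0.25 (SE).

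In 41 exact permutation tests, 1 per gene, 22 genes had an unadjusted p below 0.05, all higher in sarcomatoid tumors, where 4.91% of all probes were higher and 3.36% lower by the same test. With 1 value per tumor number 9 did, again all higher, where 2.27% of all probes were higher and 1.48% lower.

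Since PU.1 binds purine-rich DNA with a GAGGAA core, the 250 bases before the start of each gene were read for that string on both strands. RefSeq windows (GRCm38.p6) were matched for 30 of the 41 genes, with the first window listed for each. The genes Ctsb, Csf1r, C1qa, Nos2, Tyrobp, Msr1, Adgre1, Cd14, Arg1, Spi1 and Hmox1 had none. GAGGAA occurred in 18 of 30 windows, and in 23.1% of the 27025 windows of all genes. It was in those of Fcgr1, Fcgr3, Trem2, Mrc1, Itgam, Clec7a, Ctss and both C1q genes searched, and not in those of Fcgr2b, Fcer1g, Lyz2 or Gpnmb.

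Another 9 strings were searched on both strands. The longer GAGGAAGT, which contains GAGGAA, was in 1 window, that of C1qc (2.44% of all), and GGAAGTG, which overlaps it, in 5, those of C1qc, Fcgr2b, Folr2, Laptm5 and Mrc1 (8.64%). The AP-1 string TGANTCA was in 3, those of Cd68, Cd84 and Trem2 (6.87%), and its form TGACTCA in the first 2 of these (4.43%). The E-box CACGTG was in 1 (6.05%), that of Ctsd, as was TCACGTG, which contains it (3.15%), while TCACATG was in 1, that of Mrc1 (3.48%). TATAAA was in 2, those of Ctss and Laptm5 (13%), and CCGCCC in 9 (32.9%). A match is a description of the letters and not of binding.

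The windows of 6 members are shown because they hold the string in genes of different roles: the mannose receptor, the integrin CD11b, an antibody receptor, a protease and neighbouring complement genes. GAGGAA and its complement are in capitals. They lie at chr2:14229164-14229413 (Mrc1, plus strand), chr7:128062390-128062639 (Itgam, plus), chr1:171059404-171059653 (Fcgr3, minus), chr3:95526536-95526785 (Ctss, plus), chr4:136886201-136886450 (C1qb, minus) and chr4:136892915-136893164 (C1qc, minus), read 5′ to 3′ along the gene.
Mrc1: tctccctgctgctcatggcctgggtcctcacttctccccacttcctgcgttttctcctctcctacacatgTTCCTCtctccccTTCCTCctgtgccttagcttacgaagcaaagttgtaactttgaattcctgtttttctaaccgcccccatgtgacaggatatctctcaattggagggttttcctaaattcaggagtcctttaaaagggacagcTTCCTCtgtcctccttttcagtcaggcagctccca
Itgam: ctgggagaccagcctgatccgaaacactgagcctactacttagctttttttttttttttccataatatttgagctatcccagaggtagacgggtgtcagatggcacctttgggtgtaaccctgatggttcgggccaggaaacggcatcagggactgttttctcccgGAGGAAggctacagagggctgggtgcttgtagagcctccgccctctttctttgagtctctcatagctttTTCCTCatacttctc
Fcgr3: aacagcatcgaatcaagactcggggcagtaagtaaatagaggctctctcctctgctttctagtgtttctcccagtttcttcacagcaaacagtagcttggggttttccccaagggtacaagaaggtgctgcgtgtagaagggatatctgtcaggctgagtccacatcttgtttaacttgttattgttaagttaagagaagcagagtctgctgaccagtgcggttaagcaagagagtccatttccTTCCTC
Ctss: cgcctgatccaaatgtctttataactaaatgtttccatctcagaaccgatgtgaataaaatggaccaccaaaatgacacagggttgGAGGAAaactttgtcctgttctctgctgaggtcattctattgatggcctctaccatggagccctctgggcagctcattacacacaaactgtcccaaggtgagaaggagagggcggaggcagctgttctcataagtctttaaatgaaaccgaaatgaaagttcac
C1qb: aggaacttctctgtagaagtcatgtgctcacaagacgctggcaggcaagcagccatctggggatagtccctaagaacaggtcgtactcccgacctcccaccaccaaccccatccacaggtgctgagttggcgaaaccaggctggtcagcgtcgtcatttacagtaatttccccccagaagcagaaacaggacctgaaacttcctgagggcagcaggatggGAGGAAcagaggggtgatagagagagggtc
C1qc: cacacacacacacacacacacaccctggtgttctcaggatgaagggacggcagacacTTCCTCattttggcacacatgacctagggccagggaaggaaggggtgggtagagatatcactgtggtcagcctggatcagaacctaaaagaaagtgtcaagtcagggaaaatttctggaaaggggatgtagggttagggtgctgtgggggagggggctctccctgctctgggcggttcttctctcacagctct
Mrc1 held 3 matches and Itgam 2, and the other windows 1 each.

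All 7 surface and cytoplasmic markers were higher in sarcomatoid tumors, 6 of them at an unadjusted p below 0.05. Itgam stood at 5.09, 4.16, 3.59, 4.33 and 5.05 against 2.85, 1.69, 4.28, 2.57 and 2.76. Tumor 470 was the only adenocarcinoma in the sarcomatoid range. The difference was 1.61 ± 0.46 (SE), a ratio of 3.06. The other probe of Itgam gave 0.63, with an unadjusted limma p of 0.065. Adgre1 stood at 3.56, 2.04, 2.60, 2.49 and 3.47 against 1.79, 0.08, 2.30, 1.04 and -0.06, with a difference of 1.80 ± 0.49 (SE). Cd53, a leukocyte tetraspanin, differed by 1.82 ± 0.58, and Cd84, a self-binding receptor of the SLAM family, by 1.57 ± 0.46 (SE). Mpeg1, the pore-forming perforin-2, differed by 0.96 ± 0.32 and Ms4a7 by 1.35 ± 0.46 (SE). Aif1, the actin-bundling protein IBA1, had the smallest difference of the 7, 0.60 ± 0.29 (SE), and its other probe gave 1.36.

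The complement C1q genes, whose chains form the first component of the classical pathway, had no unadjusted p below 0.05 in the table. Their probes lie side by side on chromosome 4 of the mm7 build, at chr4:136274931-136274990 (C1qa), chr4:136268288-136268347 (C1qc) and chr4:136259100-136259159 (C1qb). C1qa stood at 4.5, 4.45, 4.65, 4.68 and 4.32 against 4.35, 4.15, 4.41, 4.38 and 4.10. For C1qa all tumors were about as far above the reference. C1qb stood at 4.97, 4.77, 5.36, 4.64 and 5.92 against 4.91, 3.44, 5.59, 5.02 and 3.5, with tumors 131 and 85 lowest. The differences were 0.24 ± 0.21 for C1qa, 0.64 ± 0.45 for C1qb and 0.16 ± 0.21 for C1qc (SE).

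The channels of these probes showed more than the ratio. In the tumor (red) channel alone, on quantile-normalized log2 intensities, C1qa was at 15.02, 14.63, 14.22, 14.75 and 14.93 in sarcomatoid tumors and at 13.34, 11.87, 14.16, 13.29 and 11.67 in adenocarcinomas. Tumor 470 lay just below tumor 307, and tumors 131 and 85 were lowest. The reference (green) channel of the same spots, which holds the common reference, was at 9.55, 9.30, 8.82, 9.18 and 9.57 against 8.36, 7.43, 8.91, 8.30 and 7.28. It was high and low on the same arrays as the red channel.

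The red difference was therefore 1.84 for C1qa, 1.54 for C1qb and 1.52 for C1qc, and the green difference 1.23, 0.64 and 1.14. The probe of Aif1 did likewise, with 1.46 in red and 0.75 in green. The green differences of Folr2, Fcgr3, Csf2ra and Apoe were 0.76, 0.63, 0.55 and 0.51. The other 33 genes had green differences of at most 0.50 in size, for example 0.07 for Fcgr2b and 0.01 for Ms4a7. The largest of these were of Lyz2 and Ctss, -0.50 each, opposite in sign to red. The red difference was 1.08 for Lyz2 and 1.51 for Ctss, against 1.59 and 2.01 in the ratio. Red values of Lyz2 were equal, 18.47, in tumors 307, 594 and 470, and equal, 18.20, in both tumors numbered 323. Whether a ceiling of intensity lowered the red difference of Lyz2 was not tested. Mrc1 had a green difference of 0.14, but its green signal was near that of the dim probe of Nos2. The green signals of Itgam, Cd84 and Spi1 were also near that level, and those of Cd163, Arg1 and Folr2 were so on some arrays. In green, 0 of the 41 genes passed limma's adjusted p (11 were higher and 1 lower at an unadjusted p below 0.05, where 0.85% of all probes were higher and 0.712% lower). The part of the green channel in the small ratios of C1q was not tested. The green channel was examined after the ratios had been seen.

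**Figure D3:**
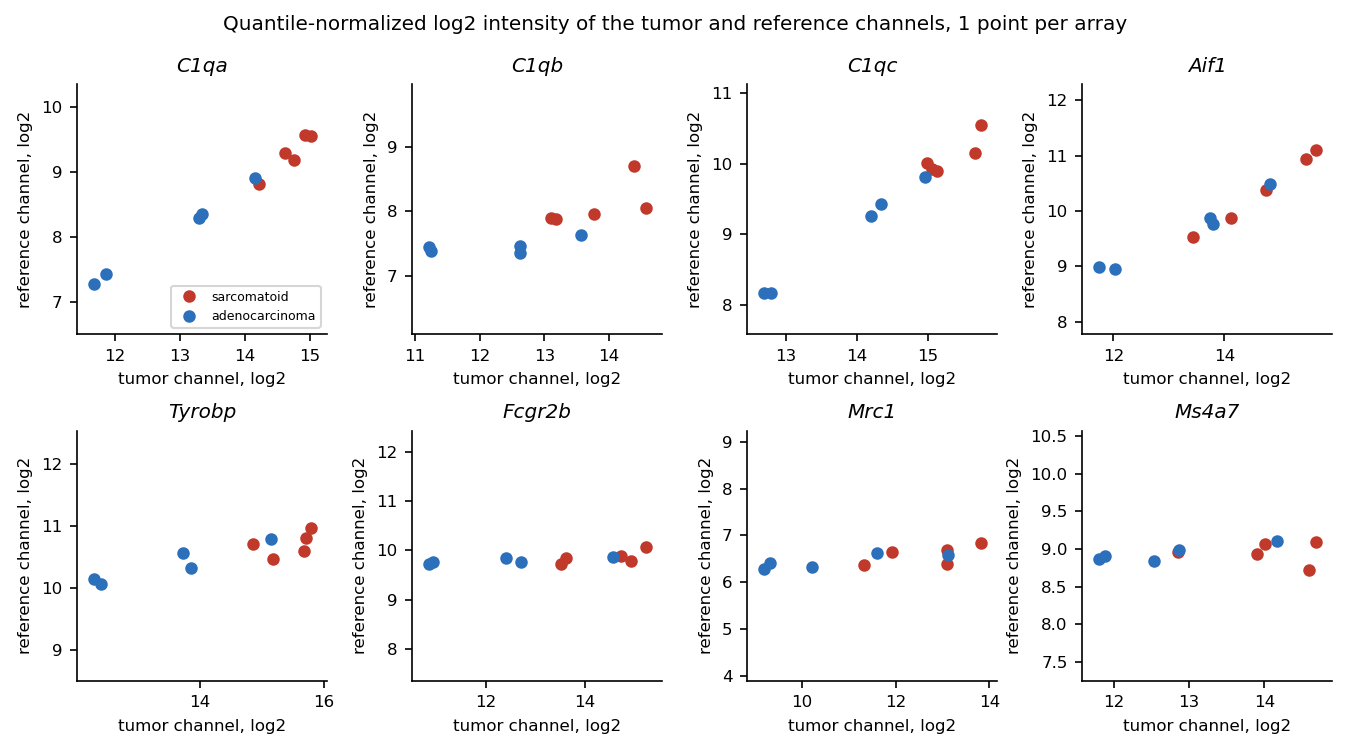
Quantile-normalized log2 intensity of the tumor channel (horizontal) and the reference channel (vertical) for 8 macrophage probes, on equal scales within a panel, 1 point per array. For C1qa, C1qc and Aif1 the reference channel climbs with the tumor channel, while for Fcgr2b, Mrc1 and Ms4a7 it stays level. The reference signal of Mrc1, from 6.29 to 6.84, is near that of the dim probe of Nos2. Its level course is therefore not informative.

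Among genes of arginine, heme and lipid handling, none had an unadjusted p below 0.05. Arg1, the arginase of alternatively activated macrophages, was far above the reference in every tumor, at 6.38, 5.88, 5.62, 4.89 and 5.86 against 4.17, 5.74, 5.50, 4.96 and 4.6. Tumor 131, low for most of the genes, was high for this one. The difference was 0.73 ± 0.36 (SE). Nos2, the inducible nitric oxide synthase, stayed between -0.16 and 0.76 in all tumors, and its probe was well above background on 5 of 10 arrays. Its difference of -0.08 ± 0.24 (SE) turned sign with the scanner values.

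Hmox1, which breaks down heme, stood at -1.78, 1.44, -0.66, -1.72 and -0.34 against -1.76, -2.33, 0.60, -1.32 and -1.31. Lung tumor 323 was highest and tumor 323 lowest of the sarcomatoid group. Apoe, the lipoprotein of lipid-laden macrophages, stood between 4.35 and 5.73 in all tumors and differed by 0.44 ± 0.30 (SE).

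To see which genes departed from the rest, each log2 ratio was taken minus the median of the other 40 genes on the same array. Cd68, Cd84, Tyrobp, Lyz2 and Itgam differed between class means about as much as the rest. Their relative differences were 0.00, 0.00, 0.01, 0.02 and 0.05. Cd84 had the tightest relative level of these in sarcomatoid tumors, 1.55 ± 0.20 (SD, n = 5). Cd68 had the widest, -3.02 ± 0.90, so it did not follow the rest from array to array. Msr1 and Fcgr2b had the largest positive relative differences, 0.87 and 0.60. C1qa, Cd14, C1qc, Csf2ra, Ctsd and Nos2 had -1.32, -1.36, -1.41, -1.42, -1.45 and -1.58. Marco at -2.29 and Gpnmb at -1.96 were furthest from the rest. These are descriptions with no test.

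**Figure D4:**
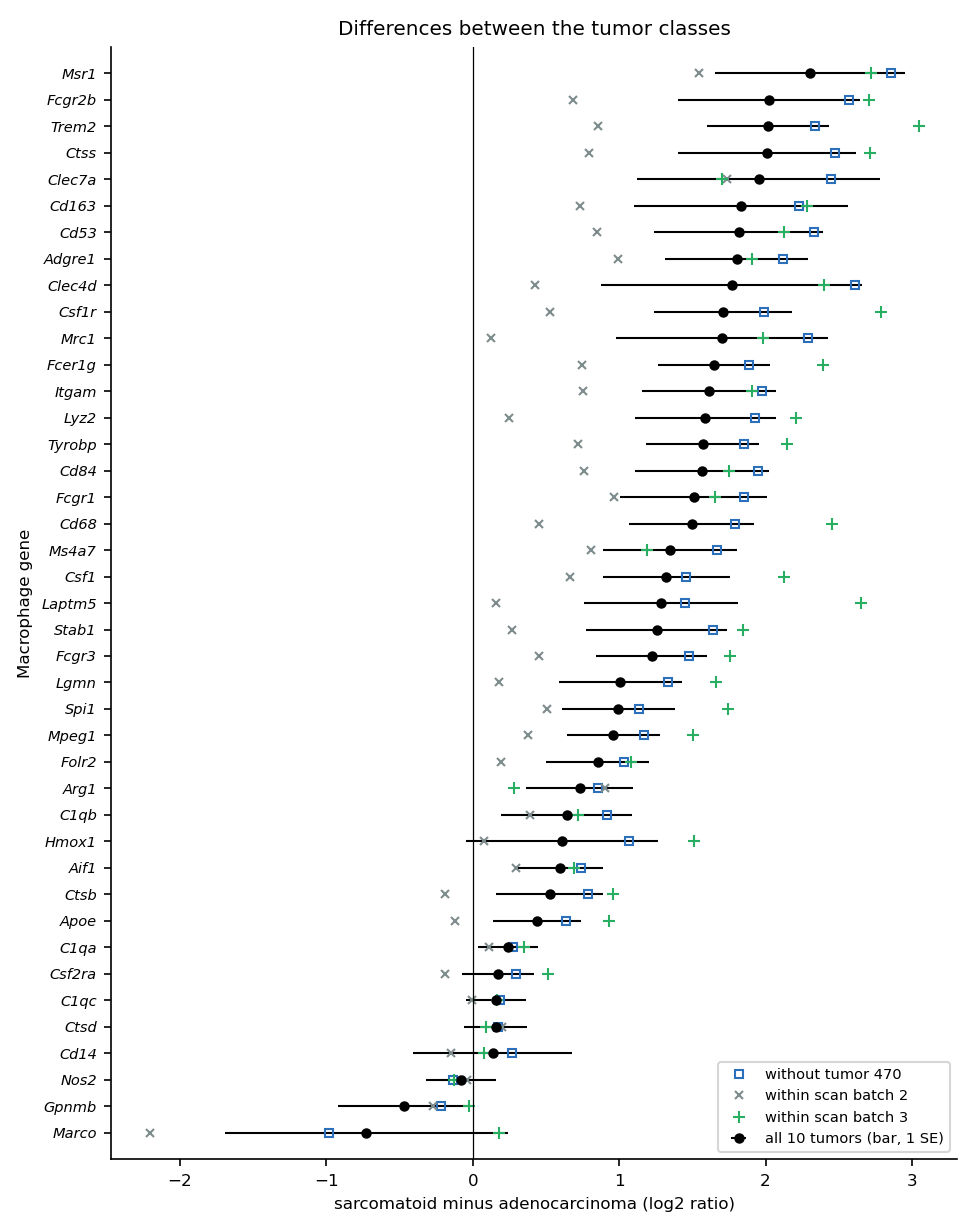
Difference in log2 ratio, sarcomatoid minus adenocarcinoma, for each of the 41 macrophage genes: filled points with bars of 1 SE for all 10 tumors, open squares without tumor 470, crosses within scan batch 2 and plus signs within batch 3. Most genes lie to the right of 0 in all 4, further within batch 3 than within batch 2.

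The lung tumors were compared with the mammary sarcomatoid tumors in a fit with adenocarcinomas as a further group. No macrophage gene passed (limma, 0 of 41 adjusted, 0 higher and 0 lower unadjusted), where 0.00995% of all probes were called higher and 0.0149% lower, or 5.59% and 5.1% unadjusted. The median difference, lung minus mammary, was -0.07, with 19 genes higher and 22 lower, where 51.6% of all probes were higher and 48.4% lower. Lung tumor 307 exceeded tumor 307 for 25 genes and lung tumor 323 exceeded tumor 323 for 18.

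Only 2 genes were higher by over 1 log2 unit (8.38% of all probes) and 4 lower (7.95%). Laptm5 had 0.72 and 2.14 in lung tumors 323 and 307, against -0.41, -0.49 and 0.88 in mammary tumors 323, 307 and 594. It had a difference of 1.43 and the smallest unadjusted p, 0.0525. Spi1 differed by 1.01. Clec7a, Mrc1, Cd163 and Ms4a7 were lower in the lung, by -1.25, -1.15, -1.14 and -1.06. Those of Mrc1, Cd163 and Ms4a7 turned sign with scan batch as a term. No scan batch held both kinds of sarcomatoid tumor. That term moved the median of the 41 genes to 1.17, with 37 of them higher and 4 lower. With the tumor number as a replicate block 0 probes were called, against 10 in the main fit, and 0 of the 41 genes. The fit with the block held only the lung and mammary tumors 323 and 307. The effect of the block therefore cannot be told apart from that of fewer arrays.

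Other lists, chosen for cell types a mammary or lung tumor could hold, place these values. Of 33 other macrophage genes measured, 28 were higher and 5 lower in sarcomatoid tumors, with a median of 1.16, and 15 were higher and 1 lower at an unadjusted p below 0.05. Those with the smallest p were the oxidase subunits Ncf4 at 2.28 ± 0.47 and Ncf1 at 2.01 ± 0.44, and the chemokine receptor Cx3cr1 at 1.16 ± 0.27 (SE). The 5 lower were Cd9, Fabp5, Nr1h3, Tnf and Timd4, of which Cd9 was lower at that p, at -1.02 ± 0.29 (SE). Of 20 other lysosome genes, 16 were higher and 8 so at that p, with a median of 0.55. Without tumor 470 the medians were 1.45 and 0.71, and 5 of the other macrophage genes passed limma's adjusted test (Ncf1, Ncf4, Maf, Cx3cr1 and C3ar1) and 0 of the other lysosome genes, with 19 and 9 higher unadjusted.

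Pan-leukocyte genes were also higher on average. All 12 were higher, 10 at an unadjusted p below 0.05, with a median of 1.13. Their list means ran from 0.02 to 0.77 in sarcomatoid tumors and from -1.51 to 0.05 in adenocarcinomas, with tumor 470 at the top of the latter. Itgb2, the integrin partner of Itgam, differed by 1.53 ± 0.38 (SE), and it alone of the 12 passed the adjusted test without tumor 470, where the median was 1.33. Of 9 monocyte genes, 8 were higher and 4 so at that p (Ccr2, Chil3, Fn1 and F13a1), with a median of 0.83, or 1.25 without tumor 470. The chemokine receptor Ccr2, which brings monocytes into tissue, differed by 2.65 ± 0.74 (SE). Chil3 is also in the lists of other macrophage and alveolar macrophage genes.

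Lists of other leukocytes had medians nearer 0. Of 11 neutrophil genes 6 were higher, with a median of 0.06, and 1 (Mmp9) passed unadjusted. Of 15 T, NK and B cell genes 8 were higher, with a median of 0.09, and 1 (Klrd1) passed. Dendritic cell genes had a median of 0.21 over 11 and mast cell genes -0.44 over 7. These medians pool lung and mammary sarcomatoid tumors. Lung minus mammary, the T, NK and B cell median was -0.91 (12 of 15 genes lower). The dendritic cell median was -0.81 (10 of 11 lower), where 48.4% of all probes were lower. Medians of mast cell and neutrophil genes were -0.60 and 0.34. T, NK and B cell list means were 0.23, -0.02 and 0.56 in the mammary sarcomatoid tumors. They were -0.97 and -0.71 in lung tumors 323 and 307, and from -1.30 to 0.57 in adenocarcinomas. Endothelial genes had a median of 0.03 over 10 and adipocyte genes -0.49 over 8.

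Epithelial and fibroblast genes also had different means in the groups. In RNA of whole tumors, a change in cell makeup and one within the tumor cells cannot be told apart. All 14 epithelial genes were lower in sarcomatoid tumors, with a median of -2.29, 6 of them at an unadjusted p below 0.05. The sarcomatoid list means were from -2.28 to 1.43, and the adenocarcinoma list means from -1.36 in tumor 470 to 3.20. All 10 fibroblast genes were higher, with a median of 0.74 and 0 at that p, and list means from -0.89 to 2.37 and from -1.30 to 2.52, the highest in tumor 470. The part of these in the macrophage values was not tested. Without tumor 470 the epithelial median was -3.09, with 12 genes lower at an unadjusted p below 0.05 and 4 passing adjusted (Krt18, Cldn4, Dsp and Elf3). The fibroblast median was then 1.20, with 3 genes higher at that p and 0 passing adjusted. Among lung genes, 9 alveolar macrophage genes had a median of 0.48 and means over the list of 0.69 and 0.17 for lung tumors 323 and 307. The 12 lung epithelium genes averaged 0.36 and 0.39 there, within the range of the mammary tumors.

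**Figure D5:**
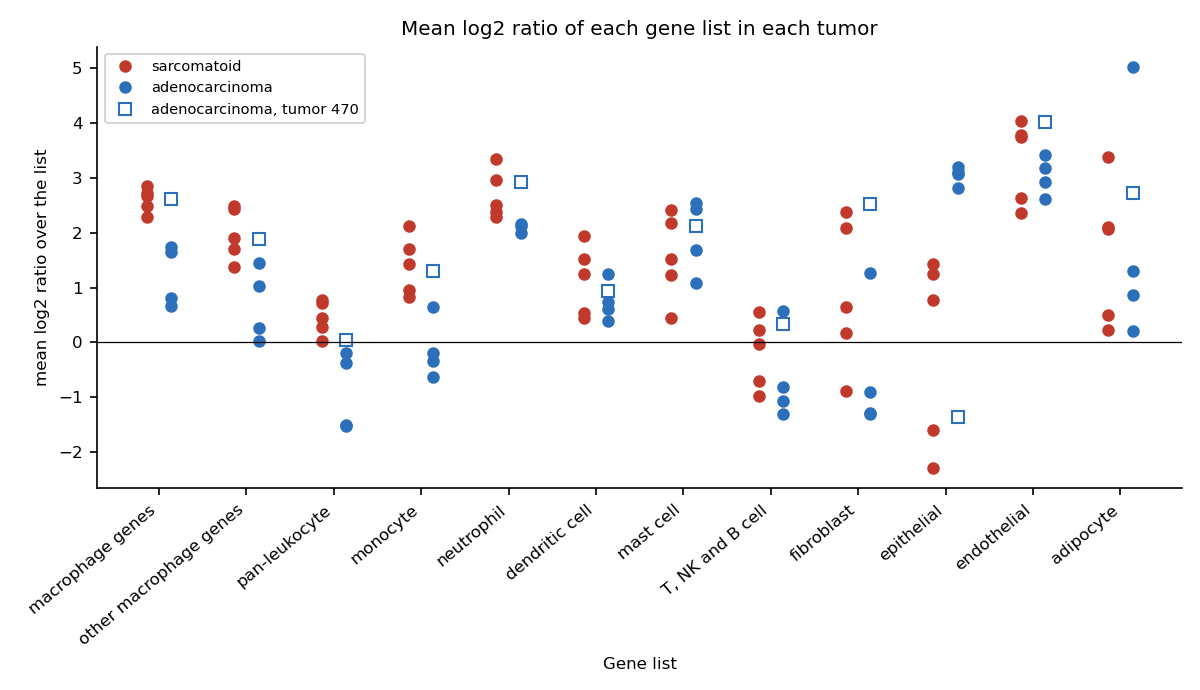
Mean log2 ratio of tumor over reference RNA over each of 12 gene lists (vertical axis), 1 point per tumor; red is sarcomatoid, blue adenocarcinoma and the open square tumor 470. Macrophage and pan-leukocyte means of the sarcomatoid tumors lie at or near the top, epithelial means of the other 4 adenocarcinomas lie above all else, and tumor 470 goes with the sarcomatoid tumors in each of these.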

How the data were processed

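RNA of 10 mouse tumors (5 sarcomatoid, 5 adenocarcinoma) was hybridized to Agilent 2-colour arrays. The authors deposited a table of log2 ratios, normalized with limma in steps not given in the sources used here, and scanner files with the spot intensity of each channel. Per the file headers, a log10 ratio was also deposited, and it was not used for results. Groups came from the labels. Rows of a probe were averaged, which left 40196 probes; another 978 of the 41174 array probes had no row. Names were updated through RefSeq. The test was limma 3.58.1 in R 4.3.3 with Benjamini-Hochberg adjustment over all probes and a threshold of 0.05, two-sided; the code was tested on simulated data.

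Alternatives were scanner medians (normexp, offset 50) with loess, median centring or quantile-normalized red alone, a dim probe filter, gene means, scan batch, slide and tumor number terms, and leaving out each array. In scanner values flagged spots were dropped and missing values filled with the probe's mean. Each table column correlated best with red over green of its own array (r from 0.804 to 0.955, at most 0.761 with another), and the lowest correlation between 2 tumors was 0.414.

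The tumor number pairs lung and mammary tumors by origin. Over all probes, the difference between lung tumors 323 and 307 correlated with that between mammary tumors 323 and 307 at r = 0.112.

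Members and lists were chosen with earlier results of these data known. All members are named; of other lists, at most the 3 genes with the smallest p in each direction were, and any behind a count of 5 or fewer. Arrays are separate tumors except for shared origin, and their number limits the precision.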

Additional observations from a re-analysis of the deposited data

Results flagged for a closer look

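Of 82 combinations of gene and tumor class, 3 had 1 tumor far from its 4 fellows by Dixon's criterion, where chance gives about 4.1. Marco was at 5.38 in tumor 105, with the other adenocarcinomas between -0.85 and 0.70. Clec7a was at 1.59 in lung tumor 307, with the other sarcomatoid tumors between 3.76 and 4.32. Nos2 was at 0.76 in tumor 17, with the other adenocarcinomas between -0.09 and 0.12.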

How the results depend on the processing

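For sarcomatoid tumors against adenocarcinomas, the count of called probes was 0 and became 1 with median centring of scanner values, 2 with 1 value per tumor number, and 0 to 618 when leaving out 1 array each; called macrophage genes ran from 0 to 10. Both maxima were without tumor 470. The median difference of the genes stayed between 1.07 and 1.48 when leaving out arrays and fell to 0.43 within scan batch 2. For 7 of the 41 genes a sign turned: within scan batch 2 for C1qc (-0.0079), Cd14 (-0.15), Ctsb (-0.19), Csf2ra (-0.19) and Apoe (-0.12); for Marco within batch 3 (0.18) and without tumor 105 (0.38, against -1.17 without tumor 17, the other end of its range); for Cd14 with scan batch as a term (-0.024), without tumor 323 (-0.0018) and without tumor 131 (-0.38, against up to 0.47); for Nos2 with loess (0.0062), median centring (0.16), red alone (0.059) and without tumor 17 (0.079, against down to -0.13). The other 34 genes kept their sign under all alternatives run. The causes were not tested.

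For lung against mammary sarcomatoid tumors, 10 probes were called, 2 with loess, 3 with median centring and with gene means, 5 with red alone, and 0 with scan batch as a term, the sarcomatoid arrays alone or the tumor number as a replicate block. Leaving out 1 array gave 0 to 84, highest without tumor 470, and 0 called macrophage genes each time. The genes' median was 1.17 with scan batch as a term and -0.22 to 0.01 without 1 array. With that term 37 of the 41 genes were higher and 4 lower, against 19 and 22 without it. Among the genes that differed by over 1 log2 unit, signs turned with it for Mrc1 (1.86), Cd163 (1.55) and Ms4a7 (0.38). That of Cd163 also turned with median centring (0.040) and red alone (0.64). The causes were not tested. Of 21 further probes of the genes, 20 were in the table, and all had the sign of the brighter probe. The difference was smaller in size for 13 of them. Of the 41 genes, Nos2 is the one whose probe was not well above background on all arrays. In the reference (green) channel, however, Mrc1, Itgam, Cd84 and Spi1 also had signals near that of Nos2, as did Cd163, Arg1 and Folr2 on some arrays. The size of their ratios is therefore less certain, and the part of the dim reference signal in it was not tested.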
